A study of Homo sapiens with 6 samples.

Results

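The genes described here encode the machinery that makes and ends messenger RNA, namely RNA polymerase II, the Mediator complex, the TATA-binding protein associated factors (TAFs), the kinases and brakes that govern elongation, the Integrator complex and the factors that cut the 3′ end of the transcript. They were picked by gene name alone, from name families such as POLR2, MED, TAF, NELF, INTS, CPSF and CSTF, which gave 119 of the 58302 genes in the expression table, a table with 19817 protein-coding genes. All 6 libraries came from MDA-MB-231-DR, cells selected for resistance to doxorubicin from MDA-MB-231, a line of triple-negative breast cancer, and kept, per the study's methods, in medium with a low concentration of doxorubicin. The control group held 3 libraries with no treatment label, and the other group held 3 libraries of cells treated with Cyperotundone (CYT), a compound obtained from sedge, whose dose and duration for these libraries are not given in the sources used here. The resistant line is a single selected line, and no label says that the libraries of a group came from separate cultures, so p-values measure only the spread between these libraries, which may be technical. The study's statistics section describes group data as means of 3 independent experiments, and does not say whether this covers the libraries. In every library VIM and CD44, both usual in MDA-MB-231, were present (CPM, counts scaled to a common library size, of 111 to 149 for CD44), while ESR1, PGR and the leukocyte gene PTPRC stayed at or below 0.49 CPM and the epithelial genes CDH1 and EPCAM at or below 1.14 CPM. Of the present markers, VIM was at 2259 to 2742 CPM in control and 911 to 1119 CPM in CYT libraries and EGFR, also usual in this line, at 131 to 192 and 13.6 to 34.3 CPM. COL1A1 was at 11.7 to 19.6 and 2.78 to 3.88 CPM, and these 3 genes were called lower with CYT by the same test as used for the members. ERBB2 and PECAM1 lay at 16.8 to 82.3 and 0.636 to 2.52 CPM over the 6 libraries.

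RNA polymerase II copies genes into RNA after TFIID, which carries the TAFs, and the other general factors have assembled at the promoter, and Mediator passes the signals of bound activators to that assembly. The polymerase then pauses near the start under the negative elongation factor NELF and the factor DSIF until the kinase CDK9 with cyclin T, together called P-TEFb, releases it, and HEXIM1 with the 7SK RNA holds P-TEFb inactive. Integrator can cut short the transcripts of paused polymerases, and the cleavage and polyadenylation factors CPSF and CSTF process full-length ones. The name families also bring in genes of other function, since TAF1A to TAF1D serve RNA polymerase I and TAF15 is an RNA-binding protein.

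The libraries held 13056270 to 17770102 counts each. CYT replicate 2 stood apart from the other CYT libraries along GC content. Among the 62 tested members whose longest transcript had a GC content under 50%, its median log2 difference from the control mean was 0.49, against 0.01 and -0.11 in CYT replicates 1 and 3, and among the 41 members with a GC content of 50% or more it was -1.17, against -0.28 and -0.21. Mitochondrial ribosomal RNA took 0.148 to 0.221% of the counts in the control libraries and 1.56 to 1.74% in the CYT libraries, and antisense genes took 0.253 to 0.291% and 0.553 to 0.572%. The part of these features in the results was not tested, beyond the values given with a GC correction or without CYT replicate 2.

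CYT treatment was followed by changes in both directions among these genes, with POLR2A, which encodes the largest subunit of the polymerase, showing the widest of them at 9.88-fold higher. Higher levels were also found for the TFIID genes TAF12 and TAF3, the P-TEFb inhibitor HEXIM1 and the Mediator gene MED29, while the Mediator genes MED20, MED8 and MED9 and the 3′ end processing gene CSTF2 were lower. In bulk libraries, fewer cells of a type and less RNA per cell cannot be told apart, and CPM and fold changes are relative to the total RNA sequenced. Of the 119 members, 103 passed the filter on low counts and were tested. With a call set at an adjusted p under 0.05 in edgeR's quasi-likelihood test, 10 members (9.71%) were called higher and 11 (10.7%) lower, beside 15.7% of the 15572 tested genes called higher and 12.9% called lower. Among protein-coding genes alone the background was 12.5% higher and 14.6% lower. The share of members called was below both backgrounds in both directions. The gap was smallest for lower calls beside all tested genes, and no test of the difference was run. The median log2 fold change of the 103 members was -0.18, against 0.0064 over all tested genes and -0.069 over the 12755 tested protein-coding genes.

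Complete separation of the groups was more frequent than a call. The 3 CYT libraries lay above all 3 control libraries for 21 members (20.4%, beside 23.4% of all tested genes) and below them for 29 members (28.2%, beside 22.7%), and the groups overlapped for the other 53. All 21 called members separated. When the replicate number was included as a block, a pairing that rests on correlations and is clear for replicate 2 alone, 18 members (17.5%) were called higher and 25 (24.3%) lower, beside 20.0% and 19.8% of all genes. That fit contained the 21 calls above and 22 others. With a correction for GC content and transcript length, 18 members (17.5%) were called higher and 36 (35.0%) lower, beside 21.2% and 25.9% of all genes. The share of members called lower was thus under the background without these terms and over it with either of them. Without CYT replicate 2, 9 members were called higher (8.65%, beside 18.6% of all genes) and 19 lower (18.3%, beside 17.0%). Without CYT replicate 3, the counts were 11 higher (10.6%, beside 12.2%) and 4 lower (3.85%, beside 7.63%). Without control replicate 1, they were 5 higher (4.81%, beside 10.9%) and 4 lower (3.85%, beside 7.41%), and without control replicate 3, 5 higher (4.85%, beside 10.3%) and 6 lower (5.83%, beside 7.36%). In these fits 103 or 104 members passed the filter. The same shares of all genes are the background of every count by role group given hereafter.

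**Figure D1:**
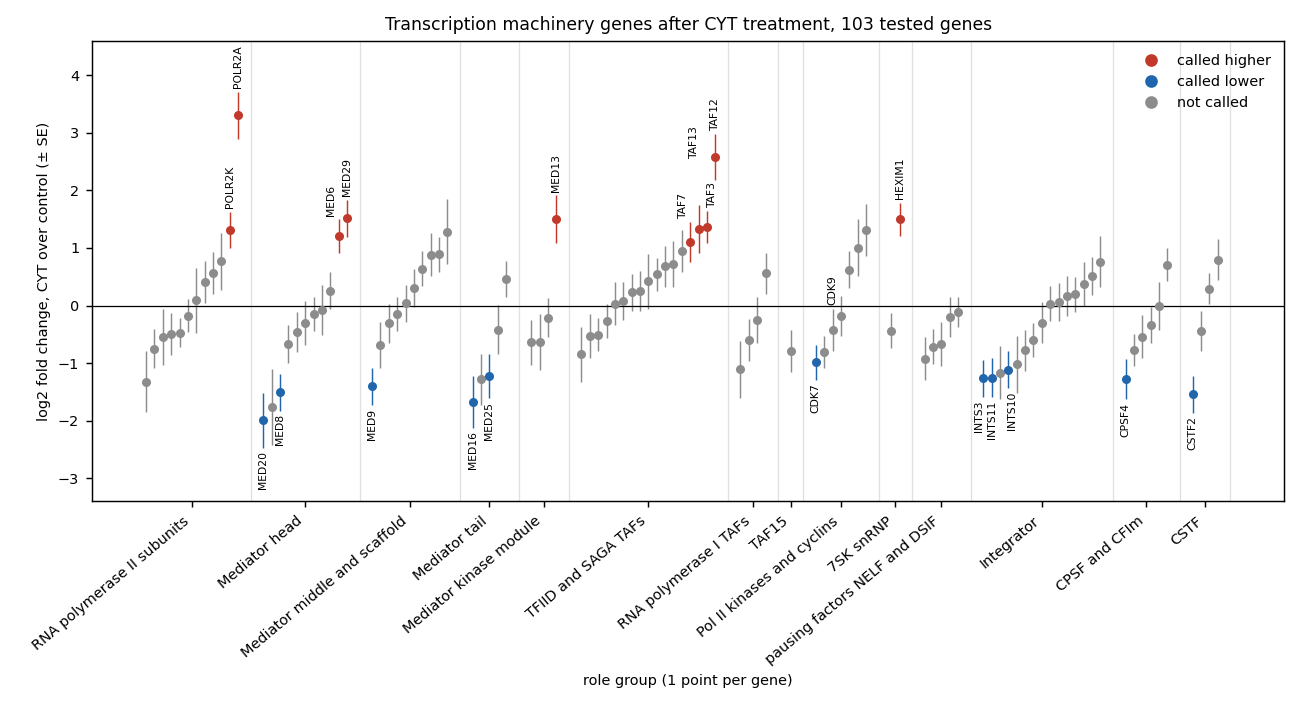
Each point is 1 of the 103 tested genes, grouped by role along the horizontal axis, and the vertical axis gives its log2 fold change (CYT over control) with bars of 1 SE. Called genes are coloured and labelled, with 10 higher led by POLR2A at 3.31, 11 lower led by MED20 at -1.99, and CDK9 labelled for reference among the genes not called.

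The 16 members without a test had few or no reads. The testis-type paralogue TAF1L had 3 to 17 counts a library, TAF7L had 1 count in CYT replicate 1 and none elsewhere, and CPSF4L had 4 counts in control replicate 1 and none elsewhere. The remaining 13 were the TAF11-like genes TAF11L2 to TAF11L14, which had at most 7 counts in any library. No statement on a change can be made for these genes at this depth.

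The promoter sequences of the most clearly changed members are shown, namely those of the 3 called higher and the 3 called lower that had the smallest adjusted p among those with an entry in the RefSeq promoter table (GRCh38.p14), to give the sequence context of these genes. Each is the 250 bases before the start that RefSeq annotates, written 5′ to 3′ on the gene's strand, and capitals mark exact matches on either strand. The deposited loci, which follow another annotation, place some starts differently. The windows of MED20, CSTF2, TAF12 and MED9 reach 196, 32, 18 and 14 bases into the loci given for these genes, that of HEXIM1 ends 27 bases before its locus, and that of POLR2A ends where its locus begins. The letters searched were CCAAT for the CCAAT box, TATAAA for the TATA box, GGGCGG for the GC box, CACGTG for the E-box and CCGGAAGT for the ETS motif, and no matches overlap in these sequences. The cAMP response element TGACGTCA, the heat shock pair GAANNTTC and the NRF1 motif were searched as well and had no match in these 6 windows.
POLR2A, chr17:7484116-7484365, plus strand: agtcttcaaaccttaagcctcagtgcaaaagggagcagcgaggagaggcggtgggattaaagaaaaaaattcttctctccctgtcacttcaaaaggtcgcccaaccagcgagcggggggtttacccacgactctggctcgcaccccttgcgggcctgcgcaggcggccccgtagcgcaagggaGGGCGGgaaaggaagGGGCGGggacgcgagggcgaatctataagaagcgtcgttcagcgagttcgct
TAF12, chr1:28643068-28643317, minus strand: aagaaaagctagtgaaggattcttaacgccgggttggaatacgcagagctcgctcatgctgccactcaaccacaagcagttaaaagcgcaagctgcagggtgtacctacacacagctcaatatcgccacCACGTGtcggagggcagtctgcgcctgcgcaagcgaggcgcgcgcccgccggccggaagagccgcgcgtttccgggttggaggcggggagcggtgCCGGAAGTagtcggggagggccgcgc
HEXIM1, chr17:45148225-45148474, plus strand: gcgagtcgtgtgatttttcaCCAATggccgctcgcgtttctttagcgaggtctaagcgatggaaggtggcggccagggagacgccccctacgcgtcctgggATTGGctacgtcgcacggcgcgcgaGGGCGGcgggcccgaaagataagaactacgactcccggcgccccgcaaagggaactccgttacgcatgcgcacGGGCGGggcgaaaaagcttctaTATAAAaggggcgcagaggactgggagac
CSTF2, chrX:100820141-100820390, plus strand: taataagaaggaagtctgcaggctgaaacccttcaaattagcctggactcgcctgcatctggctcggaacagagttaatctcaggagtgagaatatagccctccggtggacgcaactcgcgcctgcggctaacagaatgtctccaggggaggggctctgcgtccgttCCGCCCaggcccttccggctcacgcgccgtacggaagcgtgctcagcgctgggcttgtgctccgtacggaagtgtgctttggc
MED9, chr17:17476750-17476999, plus strand: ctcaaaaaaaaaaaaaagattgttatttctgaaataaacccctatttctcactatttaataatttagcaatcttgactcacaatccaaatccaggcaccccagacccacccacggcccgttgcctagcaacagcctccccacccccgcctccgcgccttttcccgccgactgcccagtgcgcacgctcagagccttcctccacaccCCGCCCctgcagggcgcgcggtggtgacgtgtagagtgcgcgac
MED20, chr6:41920944-41921193, minus strand: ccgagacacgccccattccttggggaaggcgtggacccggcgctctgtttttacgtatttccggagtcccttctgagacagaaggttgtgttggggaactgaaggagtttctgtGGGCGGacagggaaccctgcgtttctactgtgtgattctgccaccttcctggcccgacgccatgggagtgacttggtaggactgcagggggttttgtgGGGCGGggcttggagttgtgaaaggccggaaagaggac

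A GC box was present in 5 of these 6 promoters and absent from that of TAF12, which instead held the E-box and the ETS motif. HEXIM1 was the only one of the 6 with a TATA box or a CCAAT box in this window. Of the 103 tested members, 83 matched an entry of the promoter table. Among those 83, a GC box was found in 63.9%, against 42.6% of all 35116 promoters and 68.0% of the promoters of tested protein-coding genes. The ETS motif was found in 20.5% of the members' promoters, 3.42% of all promoters and 7.29% of those of tested protein-coding genes. It was in 2 of the 7 promoters of members called higher and 2 of the 9 of members called lower. TATAAA occurred in 3.61% of the members' promoters, 10.7% of all and 5.29% of those of tested protein-coding genes. In the same order, CCAAT occurred in 41.0%, 32.0% and 35.1%, and CACGTG in 9.64%, 6.34% and 8.96%. The shares were 4.82%, 1.03% and 1.94% for the NRF1 motif, 7.23%, 1.65% and 2.88% for TGACGTCA, and 4.82%, 5.78% and 3.98% for GAANNTTC. These matches are descriptions of letters in a window and were not tested.

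The polymerase itself has 12 subunit genes, all tested. POLR2A and POLR2K were called higher, none was called lower, and the median log2 fold change was -0.04. With the GC correction 2 were called higher and 6 lower, and the median was -0.39. POLR2A (ENSG00000181222, chr17:7484366-7514616, plus strand in hg38) encodes the subunit that carries the heptad repeat tail phosphorylated during transcription. It was counted at 215, 140.1 and 139 CPM in control replicates 1, 2 and 3 and at 1885, 858 and 2138 CPM in CYT replicates 1, 2 and 3. Every CYT library was thus several times above every control library, and CYT replicate 2 was the lowest of the 3. The group means were 165 ± 43.6 and 1627 ± 678 CPM (SD, n = 3 each), and the change passed the test (log2 fold change 3.31, SE 0.41, adjusted p = 0.000909). Reads of this gene went from 0.0137 to 0.0200% of all counts in the control libraries to 0.0924 to 0.200% in the CYT libraries. The call held in all 16 alternative fits.

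POLR2K (ENSG00000147669, chr8:100150584-100154002, plus strand) encodes a small subunit that RNA polymerases I, II and III share. Its levels were 109, 150.0 and 96.3 CPM in control and 223, 308 and 352 CPM in CYT libraries, 2.49-fold higher with CYT, with no overlap (log2 fold change 1.31, SE 0.31, adjusted p = 0.0125). The call was lost with any 1 of control replicates 1 and 3 left out (adjusted p = 0.0546 to 0.0704) and with the GC correction and the replicate block together (adjusted p = 0.0715). The log2 fold change was 0.71 with the GC correction and 0.67 with the block added to it. With the replicate block, POLR2I (adjusted p = 0.00570, log2 fold change -1.42) and POLR2E (adjusted p = 0.0363, log2 fold change -0.82) were also called, both lower, whereas without it their adjusted p-values were 0.0915 and 0.129. POLR2J shares sequence with POLR2J2, POLR2J3 and POLR2J4, and its counts are therefore uncertain.

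Levels of different subunit genes can be compared in the deposited FPKM values, which are scaled by length. POLR2A ranked 7 of 12 by mean in the control group, at 15.5 ± 3.20 FPKM (SD, n = 3), and 1 of 12 in the CYT group, at 154 ± 57.0 FPKM. Library by library it ranked 7, 8 and 9 without CYT and 1, 2 and 1 with CYT. The highest mean in the control group was that of POLR2L, at 119 ± 84.2 FPKM, a value whose spread between libraries was wide. Expressed against the median FPKM of the other 11 subunit genes, POLR2A stood at 0.887, 0.624 and 0.523 in the control libraries and at 10.9, 6.93 and 10.8 in the CYT libraries. The catalytic partner POLR2B was counted at 96.3, 129 and 137 CPM and 142, 274 and 119 CPM, with the groups overlapping (log2 fold change 0.56, SE 0.37, adjusted p = 0.278). In CYT replicates 1 and 3 POLR2A lay above the other 11 subunit genes and in CYT replicate 2 POLR2K was higher, while the second largest subunit did not pass the test.

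**Figure D2:**
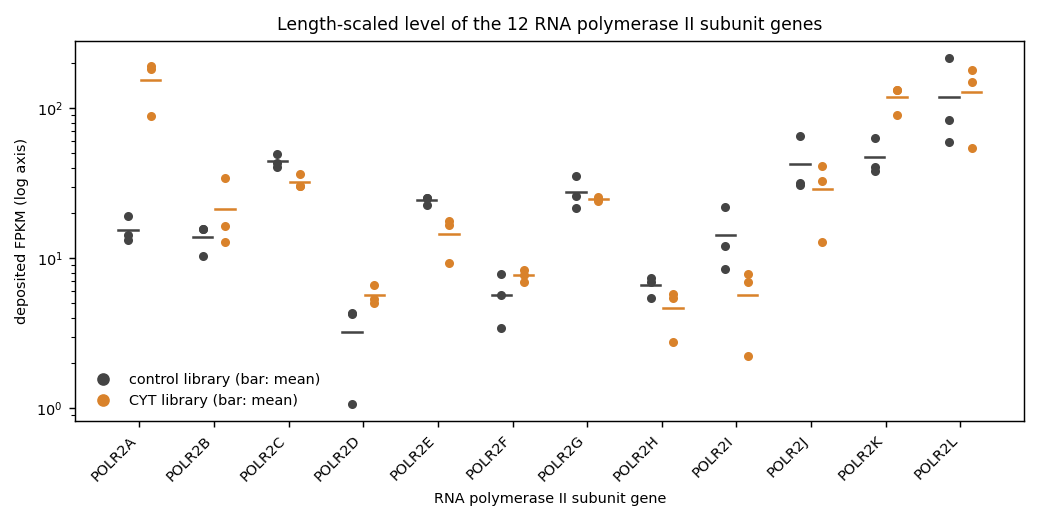
The deposited FPKM of the 12 RNA polymerase II subunit genes is plotted on a log axis, with 1 point per library and a bar at the mean of each group of 3. POLR2A moved from a mean of 15.5 FPKM in control to 154 FPKM in CYT libraries, and POLR2K also separated, while POLR2L was high in both groups.

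Mediator had 30 tested members, of which 3 were called higher and 5 lower, with a median log2 fold change of -0.26. With the GC correction 5 were called higher and 12 of the 30 lower (beside 25.9% of all genes), with a median of -0.42, and without CYT replicate 2 the calls were 3 and 7. Among the 11 genes grouped here with the head module, which contacts the polymerase, MED29 and MED6 were higher and MED20 and MED8 lower. MED20 (ENSG00000124641, chr6:41905354-41921139, minus strand) was at 28.1, 31.9 and 27.2 CPM in control and 9.94, 2.56 and 9.46 CPM in CYT libraries, 3.97-fold lower (log2 fold change -1.99, SE 0.48, adjusted p = 0.0131). CYT replicate 2 was lowest, and without it the log2 fold change was -1.59. On the log2(FPKM + 1) scale it was -1.33. MED8 (ENSG00000159479, chr1:43383917-43389808, minus strand) went from 49.4, 39.3 and 51.6 CPM to 20.4, 11.9 and 17.1 CPM (log2 fold change -1.51, SE 0.32, adjusted p = 0.00740). Both genes lay lower in each CYT library than in any control library.

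In the opposite direction, MED29 (ENSG00000063322, chr19:39391303-39400637, plus strand) was at 80.4, 65.0 and 65.9 CPM in control and 231, 134 and 240.2 CPM in CYT libraries, 2.86-fold higher (log2 fold change 1.52, SE 0.32, adjusted p = 0.00731). MED6 (ENSG00000133997, chr14:70581257-70600690, minus strand), one of the conserved head subunits, went from 25.1, 29.2 and 28.4 CPM to 54.0, 80.2 and 56.3 CPM (log2 fold change 1.20, SE 0.30, adjusted p = 0.0146), a call that was lost with any 1 of control replicates 1 and 3 left out (adjusted p = 0.0672 to 0.0678). The groups did not overlap for either gene. Of the 11 head genes, 2 separated above and 4 below the controls, and 8 had a negative log2 fold change. The even number of calls in each direction held in the fit without further terms, while the GC correction gave 2 higher and 6 lower with a median of -0.85 in place of -0.31, and leaving out CYT replicate 2 gave 2 and 3. MED22 was called lower with the replicate block alone (adjusted p = 0.0101, log2 fold change -2.21), against an adjusted p of 0.0727 without it.

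Of the 10 genes of the middle module and scaffold, MED9 was called lower and the others were not called, while the GC correction gave 1 call higher and 3 lower. MED9 (ENSG00000141026, chr17:17476986-17493226, plus strand) measured 21.9, 13.8 and 20.3 CPM in control and 7.55, 6.76 and 6.83 CPM in CYT libraries, 2.65-fold lower (log2 fold change -1.41, SE 0.32, adjusted p = 0.0111). Its CYT values lay close together and below the control range. MED1, the subunit that nuclear receptors bind, was called higher with the replicate block (adjusted p = 0.0313, log2 fold change 0.87), as was MED19 (adjusted p = 0.0215, log2 fold change 0.96), and MED7 was called lower there (adjusted p = 0.0491, log2 fold change -0.72). Their adjusted p-values without the block were 0.0524, 0.107 and 0.225.

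The tail module, where many activators dock, had the lowest median log2 fold change of the Mediator modules as grouped here, at -1.22 over 5 genes, with MED16 and MED25 called lower. MED16 (ENSG00000175221, chr19:867630-893218, minus strand) was counted at 224, 121 and 119.6 CPM in control and 64.5, 21.6 and 59.7 CPM in CYT libraries (log2 fold change -1.67, SE 0.46, adjusted p = 0.0226). The call was lost with any 1 of control replicate 1 and CYT replicate 3 left out (adjusted p = 0.0509 to 0.0859). MED25 (ENSG00000104973, chr19:49818279-49838816, plus strand), a docking subunit for acidic activators, went from 112, 73.9 and 97.8 CPM to 54.2, 21.2 and 46.2 CPM (log2 fold change -1.22, SE 0.39, adjusted p = 0.0406). This call was lost with any 1 of control replicates 1, 2 and 3 and CYT replicate 3 left out (adjusted p = 0.0515 to 0.121) and with a minimum mean of 5 CPM, protein-coding genes alone and upper-quartile scaling (adjusted p = 0.0565 to 0.0603). The locus of MED25 overlaps the antisense gene PTOV1-AS1, with 144 to 493 counts a library, and without strand information reads of the pair cannot be told apart. Both genes were lowest in CYT replicate 2 and are rich in GC, at 64.8% and 58.5%. After the GC correction the median of the tail genes was -0.97, and without CYT replicate 2 it was -0.98. MED15, another tail gene, was called lower with the replicate block (adjusted p = 0.00355, log2 fold change -1.28) and not without it (adjusted p = 0.0566).

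The kinase module can dock on Mediator and keep it from the polymerase. Of its 4 members, MED13 (ENSG00000108510, chr17:61942605-62065282, minus strand), which joins the module to Mediator, was called higher. It measured 26.7, 42.1 and 21.7 CPM in control and 72.6, 131 and 52.8 CPM in CYT libraries (log2 fold change 1.50, SE 0.41, adjusted p = 0.0238). CYT replicate 2 was the highest, control replicate 2 the highest of its group, and the groups did not overlap. The call was lost with any 1 of control replicates 1 and 3 left out (adjusted p = 0.0887 to 0.106) and with limma on log2(FPKM + 1) (adjusted p = 0.0708). The kinases and the cyclin of this module fall outside the name families, and none of the 3 was called. CCNC, the cyclin, had a log2 fold change of -0.43 (SE 0.34, adjusted p = 0.384), and with the GC correction it was called lower (log2 fold change -0.64, adjusted p = 0.0179). The kinase CDK19 was at 12.2, 20.1 and 12.2 CPM in control and 20.2, 48.2 and 20.6 CPM in CYT libraries, barely separated (log2 fold change 0.998, SE 0.42, adjusted p = 0.106), and was called higher with the replicate block (adjusted p = 0.0200, log2 fold change 0.92) and with the GC correction (log2 fold change 0.93, adjusted p = 0.0121). Without CYT replicate 2 its log2 fold change was 0.45 (adjusted p = 0.306).

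TAFs of TFIID and SAGA, the complexes that read and open promoters, had calls in 1 direction in the fit with group as the only term. Of 17 tested genes, 4 (23.5%, beside 15.7% of all genes) were called higher and none (beside 12.9%) lower, and 13 had a positive and 4 a negative log2 fold change. Complete separation was seen above the controls for 7 (41.2%, beside 23.4%) and below them for 2 (11.8%, beside 22.7%), and the median was 0.42. Without CYT replicate 2, 3 were called higher (17.6%, beside 18.6% of all genes) and none lower. The median was then 0.09, so the shift of the median rested in large part on that library. With the GC correction 5 (29.4%, beside 21.2%) were called higher and 1 (5.88%, beside 25.9%) lower, and the median was 0.15. TAF12 (ENSG00000120656, chr1:28589323-28643085, minus strand), a histone-fold subunit of both complexes, was at 2.98, 1.44 and 3.59 CPM in control and 15.9, 15.9 and 15.9 CPM in CYT libraries, from 27 to 50 counts and 200 to 225 counts. The CYT values were nearly equal and lay far above the control values, 5.97-fold higher (log2 fold change 2.58, SE 0.40, adjusted p = 0.00214). TAF3 (ENSG00000165632, chr10:7818504-8016627, plus strand), whose PHD finger binds a histone mark of active promoters, went from 19.2, 18.6 and 17.4 CPM to 42.8, 46.1 and 52.4 CPM (log2 fold change 1.36, SE 0.28, adjusted p = 0.00630). Both calls held in all 16 alternative fits, with TAF12 at 1.79 on the log2(FPKM + 1) scale.

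TAF13 (ENSG00000197780, chr1:109062486-109076002, minus strand), the histone-fold partner of TAF11, measured 47.7, 92.3 and 40.2 CPM in control and 117, 223 and 113 CPM in CYT libraries (log2 fold change 1.33, SE 0.42, adjusted p = 0.0397). TAF7 (ENSG00000178913, chr5:141260225-141320821, minus strand), a partner of TAF1, measured 89.1, 158 and 122 CPM and 221, 366 and 207 CPM (log2 fold change 1.11, SE 0.34, adjusted p = 0.0386). In both genes replicate 2 was the highest library of each group. The TAF13 call was lost with any 1 of control replicates 1 and 3 and CYT replicates 1, 2 and 3 left out (adjusted p = 0.0534 to 0.153) and with limma on log2(FPKM + 0.1) and limma on log2(FPKM + 1) (adjusted p = 0.0531 to 0.0757), and with the GC correction its log2 fold change was 0.71. The TAF7 call was lost with any 1 of control replicates 1 and 3 and CYT replicates 1, 2 and 3 left out (adjusted p = 0.0528 to 0.139) and with limma on log2(FPKM + 0.1), limma on log2(FPKM + 1) and no filter on low counts (adjusted p = 0.0556 to 0.0715). With the replicate block 7 of the 17 genes (41.2%, beside 20.0% of all genes) were called higher, the additions being TAF4B (adjusted p = 0.0208, log2 fold change 0.95), TAF9 (adjusted p = 0.0489, log2 fold change 0.76) and TAF10 (adjusted p = 0.0392, log2 fold change 0.71), and TAF6L was called lower (adjusted p = 0.0422, log2 fold change -1.06). Without the block their adjusted p-values were 0.0831, 0.175, 0.198 and 0.211.

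The 4 TAFs of RNA polymerase I showed no call. With the GC correction 2 of them were called lower, and without CYT replicate 2 also 2, with a median of -0.89 in place of -0.42. TAF1B, the one with the highest mean FPKM, was at 28.1, 44.1 and 29.4 CPM in control and 16.3, 32.4 and 18.4 CPM in CYT libraries, with overlapping groups (log2 fold change -0.60, SE 0.36, adjusted p = 0.246). TAF1A was called lower with the replicate block (adjusted p = 0.0379, log2 fold change -1.29), against an adjusted p of 0.122 without it. The RNA-binding protein gene TAF15 was not called either (log2 fold change -0.79, SE 0.37, adjusted p = 0.139).

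**Figure D3:**
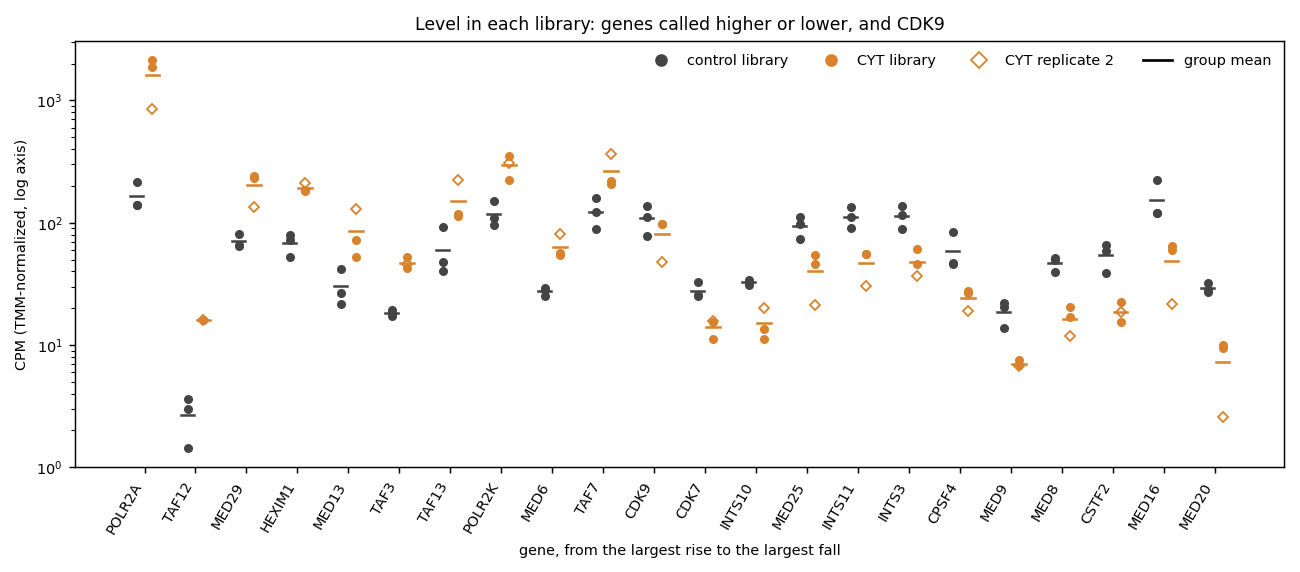
The level in CPM is plotted on a log axis for the 21 called genes and CDK9, with 1 point per library and a bar at the mean of each group of 3. CYT replicate 2 is drawn as an open diamond. In each of the 21 called genes the CYT points lie on 1 side of the control points, widest for POLR2A, while for CDK9 they overlap.

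Release of the paused polymerase is set by kinases, cyclins and the 7SK complex. Of the 7 genes of kinases and cyclins 1 was called lower and none higher, while the GC correction gave 3 higher and 2 lower. HEXIM1 (ENSG00000186834, chr17:45148502-45152101, plus strand), a gene with 1 exon, was called higher. Its levels were 79.7, 52.7 and 72.3 CPM in control and 185, 211 and 183 CPM in CYT libraries. All 3 CYT values lay within a narrow range well above the controls. The means were 68.2 ± 14.0 and 193 ± 15.6 CPM (SD, n = 3 each), 2.83-fold higher (log2 fold change 1.50, SE 0.29, adjusted p = 0.00494), and the call held in all 16 alternative fits. CDK9 (ENSG00000136807, chr9:127785679-127790787, plus strand), the kinase that HEXIM1 restrains, was at 136, 77.5 and 112 CPM in control and 97.4, 48.1 and 97.5 CPM in CYT libraries. The groups overlapped, and the difference did not pass the test (log2 fold change -0.42, SE 0.37, adjusted p = 0.417). It was called lower only with the GC correction and the replicate block together (log2 fold change -0.49, adjusted p = 0.0471). Whether HEXIM1 and CDK9 changed differently was not tested.

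The cyclin gene CCNT1, the usual partner of CDK9, was at 17.2, 37.8 and 24.5 CPM in control and 54.6, 106 and 36.8 CPM in CYT libraries with overlap (log2 fold change 1.31, SE 0.45, adjusted p = 0.0548). With the replicate block it was called higher (adjusted p = 0.00843, log2 fold change 1.25), as was CCNT2 (adjusted p = 0.0241, log2 fold change 0.91), whose adjusted p without the block was 0.159. CDK7 (ENSG00000134058, chr5:69234795-69277430, plus strand), the kinase of TFIIH, was called lower, from 25.5, 32.5 and 25.2 CPM in control to 15.4, 15.6 and 11.1 CPM in CYT libraries (log2 fold change -0.98, SE 0.31, adjusted p = 0.0380). It separated fully between groups, but the call was lost with any 1 of control replicates 1, 2 and 3 and CYT replicates 1 and 3 left out (adjusted p = 0.0763 to 0.134) and with limma on log2(FPKM + 0.1), a minimum mean of 5 CPM, protein-coding genes alone and upper-quartile scaling (adjusted p = 0.0521 to 0.0720). CDK12, a kinase of the elongating polymerase, was called lower with the replicate block (adjusted p = 0.0250, log2 fold change -0.80) and not without it (adjusted p = 0.0549).

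The 5 members of NELF and DSIF, the NELF genes and SUPT5H, all had a negative log2 fold change, with a median of -0.67, and 3 of them separated below the controls, as 22.7% of all tested genes did, but none was called. The small DSIF subunit gene SUPT4H1, which is no member, was called higher (given with the elongation factors). NELFB, the one with the highest mean FPKM, was at 282, 192 and 208 CPM in control and 167, 74.0 and 188 CPM in CYT libraries (log2 fold change -0.67, SE 0.38, adjusted p = 0.212). CYT replicate 2 was by far the lowest library. Without it the median of the 5 genes was -0.36, and after the GC correction, with 2 called lower, it was -0.47. NELFA (adjusted p = 0.0141, log2 fold change -0.97) and NELFE (adjusted p = 0.0370, log2 fold change -0.72) were called lower with the replicate block, against adjusted p-values of 0.0910 and 0.108 without it.

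Integrator had 15 tested genes, with 3 (20.0%, beside 12.9% of all genes) called lower, none called higher and a median of -0.30. With the GC correction 7 (46.7%, beside 25.9%) were called lower and the median was -0.49. Its endonuclease gene INTS11 (ENSG00000127054, chr1:1311585-1324691, minus strand) went from 134, 90.2 and 111 CPM in control to 55.6, 30.1 and 55.5 CPM in CYT libraries (log2 fold change -1.25, SE 0.34, adjusted p = 0.0223). INTS3 (ENSG00000143624, chr1:153728067-153774808, plus strand), which also belongs to a complex that binds single-stranded DNA, went from 138, 89.0 and 116 CPM to 60.6, 36.4 and 45.6 CPM (log2 fold change -1.26, SE 0.32, adjusted p = 0.0168). INTS10 (ENSG00000104613, chr8:19817140-19852083, plus strand) went from 31.1, 33.8 and 32.6 CPM to 13.5, 20.2 and 11.3 CPM (log2 fold change -1.11, SE 0.32, adjusted p = 0.0284). In these genes the CYT values all fell short of the lowest control value. The INTS11 call was lost with any 1 of control replicates 1 and 3 and CYT replicate 3 left out (adjusted p = 0.0506 to 0.0797), the INTS3 call with any 1 of control replicates 1 and 3 and CYT replicate 3 left out (adjusted p = 0.0581 to 0.0657), and the INTS10 call with any 1 of control replicates 1, 2 and 3 and CYT replicates 1 and 3 left out (adjusted p = 0.0588 to 0.103) and with upper-quartile scaling (adjusted p = 0.0517). The INTS11 locus overlaps PUSL1 on the opposite strand, which had 666 to 833 counts in the control libraries and 109 to 382 in the CYT libraries, so the INTS11 value is uncertain. INTS1 (adjusted p = 0.0127, log2 fold change -1.28), INTS2 (adjusted p = 0.0187, log2 fold change -1.20) and INTS8 (adjusted p = 0.0354, log2 fold change -0.82) were called lower with the replicate block, against 0.0850, 0.154 and 0.137 without it. Without CYT replicate 2, 5 Integrator genes (33.3%, beside 17.0% of all genes) were called lower and the median was -0.63.

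The 3′ end processing genes gave 2 calls among 10 tested, both lower, while 3 genes separated above and 3 below the controls. With the GC correction 2 were called higher and 3 lower, and without CYT replicate 2, 3 were called lower and none higher. CSTF2 (ENSG00000101811, chrX:100820359-100840932, plus strand), which binds the GU-rich element past the cleavage site, was at 59.1, 39.1 and 65.6 CPM in control and 22.3, 18.5 and 15.4 CPM in CYT libraries, 2.91-fold lower (log2 fold change -1.54, SE 0.32, adjusted p = 0.00722). The groups stood well apart, and the call held in all 16 alternative fits. CPSF4 (ENSG00000160917, chr7:99438922-99457371, plus strand), a subunit that recognises the polyadenylation signal, went from 84.3, 46.6 and 46.2 CPM to 26.5, 18.8 and 27.6 CPM (log2 fold change -1.28, SE 0.35, adjusted p = 0.0226). The call was lost with any 1 of control replicate 1 and CYT replicates 1 and 3 left out (adjusted p = 0.0557 to 0.0949). CPSF4 overlaps PTCD1 and ATP5MF on the opposite strand, and PTCD1 had 772 to 1303 counts in the control libraries and 359 to 531 in the CYT libraries, so the CPSF4 value is uncertain. With the replicate block, CPSF6 was also called lower (adjusted p = 0.0264, log2 fold change -0.77) and CSTF3 higher (adjusted p = 0.0419, log2 fold change 0.78), and their adjusted p-values without it were 0.0663 and 0.127.

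**Figure D4:**
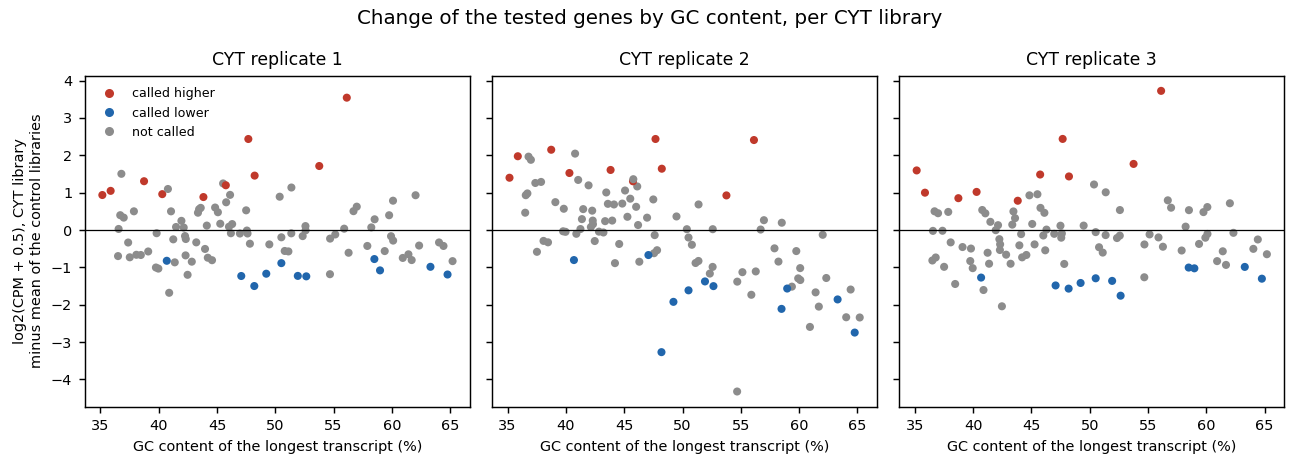
Each point is 1 tested member, with the GC content of its longest transcript in percent on the horizontal axis and the log2 difference of 1 CYT library from the mean of the control libraries on the vertical axis, in 1 panel per CYT library. In CYT replicate 2 the median was 0.49 for members under 50% GC and -1.17 for the others, a slope that CYT replicates 1 and 3 did not show to the same extent.

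Properties that the name rule did not use are given here as descriptions, with no test. The median GC content was 44.8% (35.2 to 56.1%) for the 10 members called higher and 51.9% (40.7 to 64.8%) for the 11 called lower, and 46.1% for those not called. The median of the highest exon number among a gene's transcripts was 5.5 for those called higher, 15 for those called lower and 11.5 for those not called. Median gene spans were 24.8 kb, 20.6 kb and 33.0 kb. Across the 103 members, which share the 6 libraries, Spearman's rho between the log2 fold change and GC content was -0.38, against -0.10 over 15542 tested genes. Both values include CYT replicate 2, whose medians were 0.49 for members under 50% GC and -1.17 for the others, against 0.01 and -0.28 in CYT replicate 1. Genes are not independent replicates.

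Other genes of the same pathway, outside the name families, were taken from a list of 67 tested genes, with a median log2 fold change of -0.22. Of these, 7 (10.4%, beside 15.7% of all genes) were called higher and 9 (13.4%, beside 12.9%) lower. With the GC correction the calls were 14 and 19 (20.9% and 28.4%, beside 21.2% and 25.9%). Without CYT replicate 2 they were 10 and 14 (14.9% and 20.9%, beside 18.6% and 17.0%). Among 18 general transcription factor genes 2 were higher and 6 lower, and with the GC correction 2 and 9. GTF2B, which encodes TFIIB and places the polymerase on the start site, was at 22.8, 34.6 and 46.4 CPM in control and 231, 246 and 217 CPM in CYT libraries, 6.69-fold higher (log2 fold change 2.74, SE 0.34, adjusted p = 0.000915). It was far above control in all 3 CYT libraries, as POLR2A was. TBPL1, a relative of the TATA-binding protein, was also higher (log2 fold change 1.18, SE 0.34, adjusted p = 0.0280), a call lost with any 1 of control replicates 1 and 3 and CYT replicate 1 left out (adjusted p = 0.0551 to 0.117). GTF2E2 of TFIIE (log2 fold change -1.68, SE 0.33, adjusted p = 0.00509) and the TFIIH genes GTF2H2 (log2 fold change -1.68, SE 0.33, adjusted p = 0.00537) and ERCC2 (log2 fold change -1.53, SE 0.38, adjusted p = 0.0160) were lower, of which GTF2H2 has near-identical copies and is uncertain (-0.92 on the log2(FPKM + 1) scale), and the ERCC2 call was lost with control replicate 1 left out (adjusted p = 0.0615).

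Beyond initiation, 2 of 12 genes of the super elongation complex and of the partners of 7SK were higher and none lower, namely EAF1 (log2 fold change 1.73, SE 0.32, adjusted p = 0.00398) and ELL3 (log2 fold change 1.53, SE 0.37, adjusted p = 0.0134), both linked to the ELL elongation factors. With the GC correction 3 were called higher and 1 lower (25.0% and 8.33%, beside 21.2% and 25.9% of all genes). Without CYT replicate 2, 4 were called higher and 1 lower (33.3% and 8.33%, beside 18.6% and 17.0%). The lower call there was AFF1 (log2 fold change -1.36, adjusted p = 0.00707). The ELL3 call was lost with any 1 of control replicate 3 and CYT replicate 1 left out (adjusted p = 0.0541 to 0.0616), and on the log2(FPKM + 1) scale its log2 fold change was 0.70. Of 13 genes of the PAF1 complex and other elongation factors, SUPT4H1, the small DSIF subunit (log2 fold change 1.03, SE 0.26, adjusted p = 0.0171), and SUPT6H (log2 fold change 1.05, SE 0.34, adjusted p = 0.0460) were higher, while SSRP1 of the histone chaperone FACT (log2 fold change -1.15, SE 0.27, adjusted p = 0.0116) and CDC73 of the PAF1 complex (log2 fold change -1.17, SE 0.36, adjusted p = 0.0378) were lower. Each of these calls was lost in some fits with fewer libraries, in which their log2 fold changes ranged from 0.95 to 1.08 for SUPT4H1, 0.79 to 1.25 for SUPT6H, -1.29 to -1.07 for SSRP1 and -1.43 to -0.84 for CDC73. SUPT4H1 was lost with any 1 of control replicates 1, 2 and 3 and CYT replicates 1 and 3 left out (adjusted p = 0.0506 to 0.0884), SUPT6H with any 1 of control replicates 1, 2 and 3 and CYT replicates 1 and 3 left out (adjusted p = 0.0600 to 0.134) and with no filter on low counts (adjusted p = 0.0631), SSRP1 with CYT replicate 1 left out (adjusted p = 0.0530), and CDC73 with any 1 of control replicates 2 and 3 and CYT replicates 1 and 3 left out (adjusted p = 0.0673 to 0.124) and with limma on log2(FPKM + 0.1), limma on log2(FPKM + 1), a minimum mean of 5 CPM, protein-coding genes alone and upper-quartile scaling (adjusted p = 0.0509 to 0.0845). Among 14 polyadenylation and termination factors, CLP1 was higher (log2 fold change 1.09, SE 0.31, adjusted p = 0.0257) and SSU72, a phosphatase of the polymerase tail, lower (log2 fold change -1.67, SE 0.32, adjusted p = 0.00483). With the GC correction 4 were called higher and 4 lower (28.6% each, beside 21.2% and 25.9% of all genes). Without CYT replicate 2, 2 were called higher and 4 lower (14.3% and 28.6%, beside 18.6% and 17.0%). The CLP1 call was lost with any 1 of control replicates 1, 2 and 3 and CYT replicate 3 left out (adjusted p = 0.0540 to 0.106), whereas that of SSU72 held in all 16 fits. None of the 7 genes of tail phosphatases and adaptors was called, while the GC correction gave 1 higher and 1 lower.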

How the data were processed

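RNA from MDA-MB-231-DR cells, 3 control and 3 CYT libraries, was measured by mRNA sequencing. Per the study's methods, the authors removed low-quality, adapter and ribosomal reads and aligned the rest with Hisat2, and the submitters' processing notes name FastQC 0.12.1 and build hg38. The authors deposited raw counts per gene and FPKM values, for which Stringtie is named. The counting program and its use of strand are not given in the sources used here. The members and lists were chosen with earlier results of these data known.

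The deposited counts were tested with edgeR 4.0.16 in R 4.3.3 (TMM, a minimum count of 10 in filterByExpr, quasi-likelihood test, group as the only term), with Benjamini-Hochberg adjustment over 15572 genes. A call was an adjusted p under 0.05, and the SE is the log2 fold change divided by the root of F. The biological coefficient of variation was 37.5%. An exact permutation test of 3 against 3 libraries cannot go below 0.1 and was not used. CPM is scaled by TMM library size. Where log2 differences of single libraries are given, 0.5 CPM was added. Members were grouped by role. Named are HEXIM1, POLR2A and CDK9, up to 4 called members of each role group, or its member of highest mean FPKM where none was called, up to 3 other pathway genes per group and direction, and members called with the replicate block. The fit was also run on simulated counts, with an outcome that is not given here. Deviations of same-numbered libraries correlated at 0.188, 0.458 and 0.124, each over 0.1, so the numbers were taken as pairs, on this check and not on a label. Control replicate 1 with CYT replicate 3 (0.303) and control replicate 3 with CYT replicate 1 (0.201) correlated more than their same-numbered libraries, so the data single out the number for replicate 2 alone. The pairing came from the data then tested, so adjusted p-values with the block may be too small. Alternatives were DESeq2 1.42.0, limma 3.58.1 on log2(FPKM + 1) or (FPKM + 0.1), other scaling, filters and gene sets, the replicate block, leaving out each library and, chosen after seeing the data, a correction for the GC content and length of the longest transcript. GENCODE 29 gave GC content and gene models, and 115 of the 119 member loci were identical in it. Loci are those of the deposited table.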

Additional observations from a re-analysis of the deposited data

How the results depend on the processing

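Of the 21 called members, 9 kept their call in all 16 alternative fits, POLR2A, HEXIM1, TAF12, TAF3 and MED29 higher and CSTF2, MED8, MED9 and MED20 lower. Over the 62 genes followed through the alternatives, 799 values kept their direction and side of the threshold, 87 fell short of it, 106 newly passed it and none changed direction. With the replicate block, the calls among members were 18 higher and 25 lower in place of 10 and 11. The block kept all 21 calls, added 22 and ended no other. The GC and length correction gave 18 higher and 36 lower, and together with the block 19 and 35, with 21.2% and 25.9% of all genes called higher and lower by the correction alone. For the other pathway genes, 7 higher and 9 lower, the block alone gave 9 and 12 (13.4% and 17.9%, beside 20.0% and 19.8% of all genes). The GC and length correction alone gave 14 and 19 for them, and together with the block 13 and 19. Leaving out 1 library at a time gave 5 to 11 members higher and 4 to 19 lower, and 2 to 10 and 4 to 14 other pathway genes. DESeq2, limma, upper-quartile scaling, the other filters, protein-coding genes alone and a fold change criterion left these counts within 1.5 times. Upper-quartile scaling moved the median over all genes to 0.16 on the log2 scale, and POLR2A, HEXIM1 and the other called members kept their direction under it. The cause of these shifts was not tested. The 16 untested members had too few reads for a test, and whether depth or lack of expression accounts for this was not tested. The rest were read from 3 libraries a group.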

Other observations

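Rows of other gene types that carry the names of members or of their partner RNA were also read from the fit, and those given were chosen on their values. The 7SK RNA gene RN7SK, the scaffold on which HEXIM1 holds P-TEFb, had 68, 16 and 42 counts in control replicates 1 to 3 and 155, 182 and 182 counts in CYT replicates 1 to 3. It was higher with CYT (log2 fold change 2.25, SE 0.53, adjusted p = 0.0118, edgeR), in the same direction as HEXIM1. Other 7SK protein genes did not all follow. LARP7, the other member of the 7SK complex, lay below the controls in each CYT library (log2 fold change -0.44) and was not called. The groups overlapped for HEXIM2 (log2 fold change -0.41) and MEPCE (0.96), neither called in this fit. MEPCE was called higher with the GC correction (log2 fold change 1.12, adjusted p = 0.00264). 7SK has no poly(A) tail, and its counts in libraries of separated mRNA are a small remainder of the RNA in the cell.

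Of 6 antisense genes named after members, 3 had enough reads to be tested and all 3 were higher with CYT, beside 50.3% of the 761 tested antisense genes called higher and 3.15% called lower. INTS6-AS1 had 2 to 10 counts in the control libraries and 38 to 79 in the CYT libraries (log2 fold change 3.70, SE 0.60, adjusted p = 0.00242). MED14OS had 12 to 22 and 44 to 68 counts (log2 fold change 1.85, SE 0.44, adjusted p = 0.0124), and TAF1A-AS1 had 14 to 24 and 43 to 66 counts (log2 fold change 1.80, SE 0.43, adjusted p = 0.0128). MED4-AS1, which had too few reads for a test, had 3 counts in each control library and 0 in each CYT library. None of the members INTS6, MED14 and TAF1A was called in the fit with group as the only term. Antisense genes as a whole took 0.253 to 0.291% of the counts in the control and 0.553 to 0.572% in the CYT libraries, and the part of that shift in these values was not tested.

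The transcribed pseudogene POLR2J4 (ENSG00000272655) was lower, with 192 to 325 counts in the control and 41 to 84 in the CYT libraries (log2 fold change -1.70, SE 0.42, adjusted p = 0.0150). A second row named POLR2J4 (ENSG00000214783), a processed transcript, had 11, 6 and 16 counts in the control and 42, 29 and 17 in the CYT libraries and was not called (log2 fold change 1.58, SE 0.58, adjusted p = 0.0687). The protein-coding relatives POLR2J2 (log2 fold change -0.90, adjusted p = 0.283) and POLR2J3 (log2 fold change -0.12, adjusted p = 0.811) were not called. These genes resemble POLR2J in sequence, and reads could be shared among them.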
